A study of Rattus norvegicus with 6 samples.

Results

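Spinal cord astrocytes cultured from rats without a transgene were described by the genes that gave the brightest signals on 3 arrays. The arrays, replicates A, B and C of the NonTG group, are 3 of the 6 in the series. The other 3 arrays came from cultures carrying the hSOD1G93A transgene and were not compared here. Confluent cultures had spent 24 hours in a supplemented L15 medium when RNA was taken, and 5 ug of total RNA was labelled for each Rat Genome 230 2.0 array. The age of the animals, whether the NonTG cultures came from littermates of the transgenic ones, and whether A, B and C were separate animals or cultures are not given in the sources used here, so the spread between the 3 arrays may be technical.

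Members were chosen by their signal. Each of 14217 genes with 1 symbol was represented by its brightest probe set, and the 300 with the highest mean log2 signal over the 3 arrays were kept, which is 2.11% of the genes. The signals that chose the members are therefore given as a description. A probe set's brightness also depends on its own sequence, so the rank is an order of signals on this array and not an order of RNA amounts.

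Astrocytes are the glial cells that buffer potassium and glutamate around neurons, pass ions and metabolites to each other through gap junctions, and store and release metabolic fuel. They are known by the intermediate filament protein Gfap, the water channel Aqp4, the gap junction protein Gja1 and, in immature and cultured cells, the fatty acid binding protein Fabp7. In culture they flatten, spread on a protein matrix of their own making and keep features of immature glia.

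The authors' values share a common level: without the brightest and dimmest 2% of probe sets, each of the 3 arrays averaged 500.0. The 300 genes had geometric mean signals of 7710 to 27681, a 3.59-fold range, against a median of 325 over all genes. On the log2 scale they lay between 12.91 and 14.76 with a median of 13.46, where the median of all genes was 8.34. The median SD over the 3 arrays was 0.089, or 1.06-fold, for the 300, and 0.205 for all genes. Nearly the same SD, 0.087, held for the 300 genes that followed in rank.

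The edge of the group was not a gap. The last 3 genes inside were Rnase4, a secreted ribonuclease, Canx, the chaperone calnexin, and Sumo2, a protein modifier, at geometric mean signals of 7722, 7720 and 7710. The first 3 outside were Nid1, a basement membrane protein, Akr1b1, an aldose reductase, and Lrrc58, at 7708, 7707 and 7690. Within 1 median SD of the last member lay 31 genes inside and 38 outside. Of the 300 genes, 285, 291 and 290 were also among the brightest 300 of array A, B or C taken alone, and 270 were so on all 3. When the brightest 300 were chosen on arrays B and C, 278 of them were among the brightest 300 of array A, and the same count for arrays B and C was 284 and 287. Position near the edge is thus set by the arrays used, while most of the group recurred on each array.

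**Figure D1:**
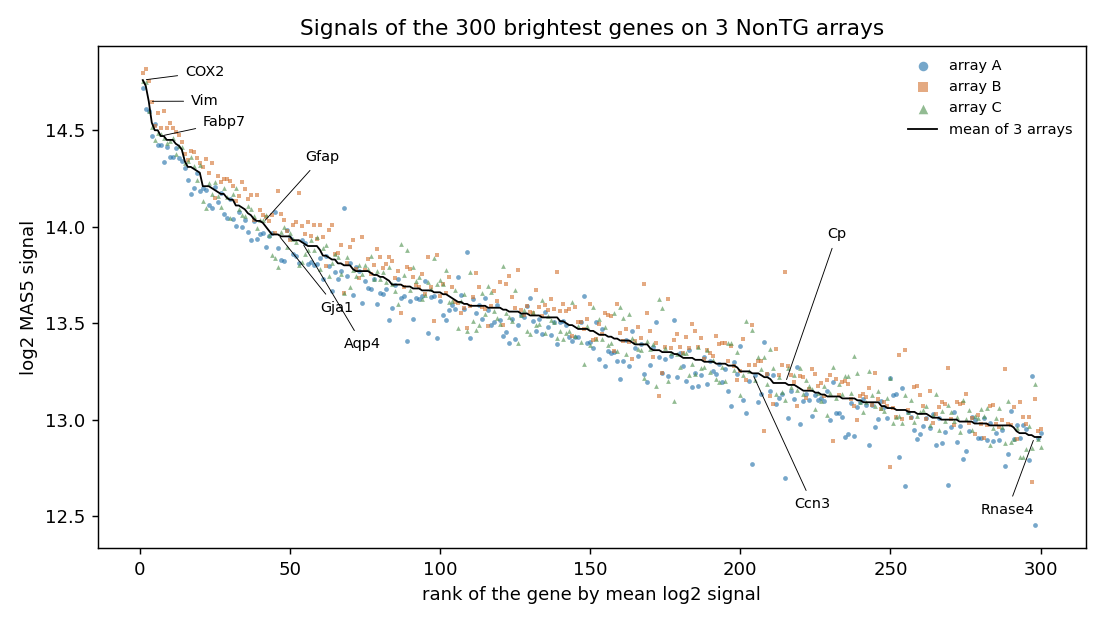
Log2 MAS5 signal (vertical axis) of the 300 brightest genes against their rank (horizontal axis), with 1 point for each NonTG array and the mean as a line. The signal falls from 14.76 to 12.91 with no step at the end, and Cp, Ccn3 and Rnase4 are among the genes whose arrays spread widest.

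The labelled cell type was checked against its markers. Fabp7 had signals of 22005, 23400 and 22855 on arrays A, B and C, at rank 7. Gfap had signals of 15999, 17105 and 16814, at rank 41. These 2 genes varied little, with SDs of 0.045 and 0.050 on the log2 scale. Gja1 had signals of 15151, 18653 and 14183, at rank 46, with array B the highest (SD 0.206). Aqp4 had signals of 15622, 16449 and 14412, at rank 54 (SD 0.096). All 4 markers were well inside the 300 on every array.

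Of the 20 measured genes in a wider astrocyte list, 10 were among the 300 (the 300 make up 2.11% of all genes), and 5 were so when the mean or the median over a gene's probe sets replaced its brightest probe set. Beside the 4 markers they were S100b, a calcium-binding protein of glia, at a mean log2 signal of 13.77, and Clu, the secreted chaperone clusterin, at 13.70. Mlc1, a membrane protein of astrocyte end feet, was at 13.58, and Slc1a3, the glutamate transporter of immature astrocytes, at 13.46. Aldoc, the brain form of aldolase, was at 13.28 and Fgfr3, a growth factor receptor, at 13.19. Other astrocyte genes lay outside. Apoe, the lipid carrier of glia, had signals of 5469, 6431 and 4021, and Glul, glutamine synthetase, had 3148, 2760 and 2432. Ntrk2, a neurotrophin receptor, had 2583, 2445 and 1411, with array C the lowest. At the dim end were Slc1a2, the glutamate transporter that dominates in adult tissue, with 79.5, 98.2 and 103.0, Agt, angiotensinogen, with 142.3, 136.4 and 145.9, and Gjb6, a connexin of mature astrocytes, with 4.9, 1.4 and 38.4. The list thus covered nearly the whole range of the array, from 14.47 to 2.68.

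Genes of other cell types gave very different signals. Detection calls were not used, so a low signal does not show that a gene is expressed. These are bulk cultures, in which fewer cells of a type and less RNA per cell cannot be told apart. Of the 15 fibroblast and meningeal markers measured, 5 were among the 300, which make up 2.11% of all genes. They were the collagen chains Col1a2, Col3a1 and Col1a1, the matrix protein Postn and the small proteoglycan Ogn. Col1a2 had signals of 21029, 23383 and 22567, and Col3a1 had 17515, 12930 and 12904, with array A above the others. The rest of that list was much dimmer. Lum, lumican, had 113.9, 1118 and 248.6, with only array B bright, Dcn, decorin, had 59.1, 92.3 and 63.9, and Slc6a13, a GABA and taurine transporter of the meninges, had 69.6, 66.9 and 34.8. The list's median of 8.31 lay at the median of all genes, 8.34. The list's median was 8.25, 8.48 and 8.25 on arrays A, B and C. The log2 of its summed signal was 16.13, 16.12 and 16.14, of which the 5 members made up 95.9%, 95.4% and 97.2%, and the sum over the other 10 genes was 11.52, 11.67 and 10.99. No probe set on these arrays had a signal of 0 (the lowest were 0.17, 0.24 and 0.12), so a signal above 0 does not show expression. How far fibroblast-like cells contribute to the collagen signals was not tested.

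Smooth muscle and pericyte markers gave 1 member of the 300, which make up 2.11% of all genes. It was Tagln, an actin-binding protein, with signals of 13995, 13638 and 14284. Acta2, smooth muscle actin, followed outside the 300 with 4229, 3549 and 5576, and Myl9, a myosin light chain, with 5157, 3561 and 5596, and array B was the lowest for all 3 of these genes. Rgs5, a pericyte regulator of G proteins, had 417.4, 111.2 and 371.8. The list's 11 measured genes had a median of 8.05.

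Microglia markers had 0 of 18 measured genes among the 300, near the share of 2.11% over all genes. Their median was 4.82, with 16 of the 18 below the median gene. Cx3cr1, their fractalkine receptor, had signals of 29.4, 41.9 and 39.4, P2ry12, a purine receptor of resting microglia, had 6.4, 5.5 and 31.8, and Itgam, the integrin chain CD11b, had 4.5, 11.2 and 14.8. The brightest of the list was Cd14, a lipopolysaccharide co-receptor, with 542.8, 755.9 and 1061. Tmem119 had 546.1, 234.0 and 441.7 and Laptm5, a lysosomal protein of leukocytes, had 118.3, 157.2 and 153.9. Apart from Cd14 and Tmem119, the list thus lay below the median gene. The list's median was 4.78, 5.34 and 5.28 on arrays A, B and C, and the log2 of its summed signal was 10.63, 10.76 and 11.15. Cd14 and Tmem119 made up 68.7%, 57.0% and 66.1% of that sum, and without them it was 8.96, 9.54 and 9.59.

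The 300 make up 2.11% of all genes, so a count of 0 in lists as short as the next ones is near that share. Oligodendrocyte lineage genes were 0 of 14, with a median of 5.95 and 10 of the 14 below the median gene. Cnp, a myelin enzyme, was the brightest at 2018, 2331 and 2466. Olig1, a lineage transcription factor, followed at 1586, 1882 and 1751 and Mbp, myelin basic protein, at 1501, 1089 and 592.1. Most of the list was far dimmer, such as Olig2 at 69.9, 67.6 and 39.1 and Sox10 at 9.1, 6.1 and 6.1. Neuron genes were 0 of 16, with a median of 6.9 and 11 of the 16 below the median gene. The brightest were Gad1, which makes GABA, at 2168, 3204 and 2744, and Stmn2, a growth cone protein, at 1782, 1969 and 1626. Map2, a microtubule protein of dendrites, was at 1654, 1576 and 1632. Dim genes of the list included Nefl, a neurofilament chain, at 89.8, 94.0 and 116.7, Rbfox3 at 82.8, 108.8 and 65.7, and Snap25, a synaptic protein, at 16.9, 7.8 and 8.2. Endothelial genes (0 of 10) had a median of 5.66. Slco1a4, an organic anion carrier, had 839.7, 1040 and 796.8, while the adhesion protein Esam had 81.4, 106.3 and 216.1 and the VEGF receptor Kdr 175.4, 114.4 and 64.1. Ependymal genes (0 of 4) had a median of 6.41. Foxj1, a transcription factor of ciliated cells, had 706.5, 1058 and 836.0, while Rsph1 and Dnai1, proteins of motile cilia, had 111.0, 99.6 and 73.0 and 64.6, 97.5 and 73.9. Among progenitor genes Vim, the intermediate filament vimentin, was at rank 3 with 24860, 27630 and 24861, and Sox2, a transcription factor of neural progenitors and glia, was just outside at rank 308 with 7139, 8113 and 7676. Pax6, a progenitor transcription factor, had 1844, 1646 and 1553.

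Markers of dividing cells were moderately bright, with a median of 9.56. Among the 300 were 0 of 9, near the share of 2.11% over all genes. Pcna, the DNA polymerase clamp, had 6759, 5940 and 5060, Cdk1, a cell cycle kinase, had 2154, 1416 and 1233, and Ccnb1, its cyclin partner, had 1821, 952.0 and 854.3. Top2a, a topoisomerase, had 1323, 689.0 and 473.2, and Mki67, a protein of cycling cells, had 1025, 469.0 and 350.8. All 9 were highest on array A and all 9 lowest on array C, as deposited and after quantile normalization, and their summed signal on the log2 scale was 13.96, 13.47 and 13.20.

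**Figure D2:**
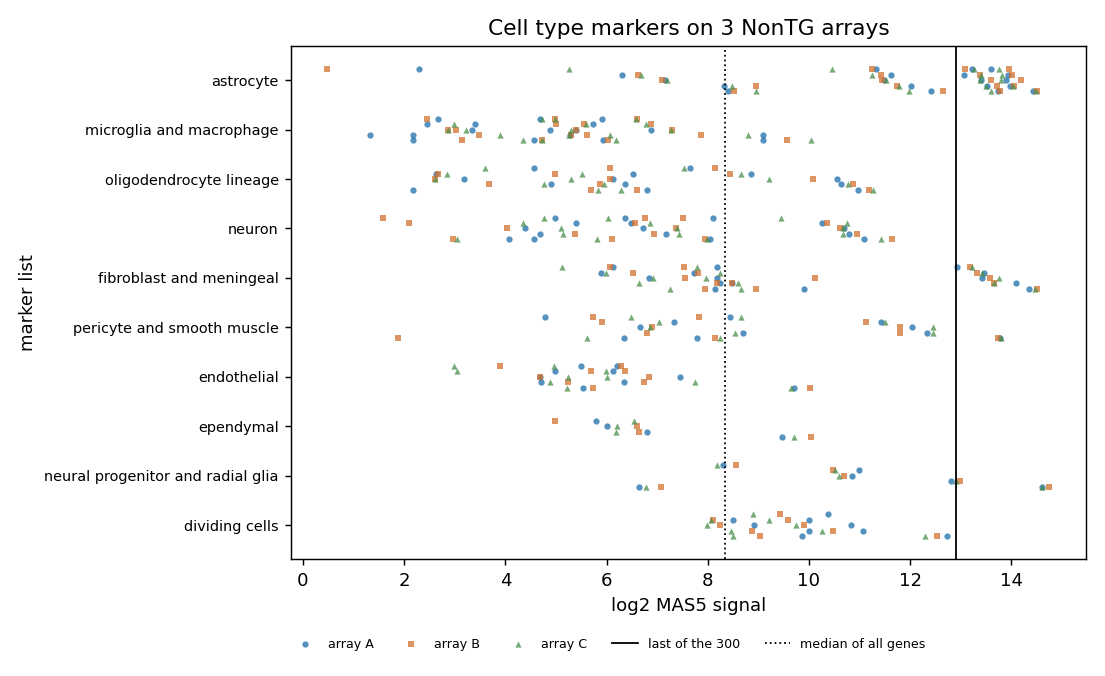
Log2 MAS5 signals (horizontal axis) of the genes of each cell type list (vertical axis, genes spread within a row), 1 point for each gene and NonTG array. The solid line marks the last of the 300 genes (12.91) and the dotted line the median of all genes (8.34). Each gene is shown by its brightest probe set. Of the astrocyte genes 10 of 20 have a mean to the right of the solid line (5 with the mean or median over a gene's probe sets), and 5 of 15 fibroblast and meningeal genes do so too. No microglia gene of 18 reaches it, which is near the share of 2.11% over all genes.

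The brightest gene of the array was COX2, with signals of 26979, 28465 and 27619, and COX1 was at rank 5 with 23725, 23493 and 22396. They are encoded in the mitochondrial genome and form the catalytic core of cytochrome c oxidase. Between them came Tmsb4x, thymosin beta 4, which binds actin monomers, at 25028, 28899 and 27567, and Igfbp2, a binding protein of insulin-like growth factors, at 22676, 25638 and 23461. The other genes among the brightest 20 were Cst3, the secreted protease inhibitor cystatin C (20692, 24849 and 22567), Fmod, the collagen-binding proteoglycan fibromodulin (21042, 23775 and 22293), and Actg1, cytoplasmic gamma actin (21732, 23056 and 21307). Itm2b, a membrane protein, was at 20972, 22762 and 21871, Eno1, a glycolytic enolase, at 19400, 20851 and 20767, Sparc, a secreted collagen-binding protein, at 18433, 21487 and 21061, and Ccdc80, a secreted matrix protein, at 18601, 20590 and 20424. Vim, Fabp7, Col1a2 and 6 ribosomal proteins completed the 20. Array A was the lowest for most of these genes, by a small amount.

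Of the 300 genes, 228 fell into the 21 function lists, each gene being counted once, and 72 into none. The counts below are to be read against the 2.11% of all genes that the 300 make up.

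**Figure D3:**
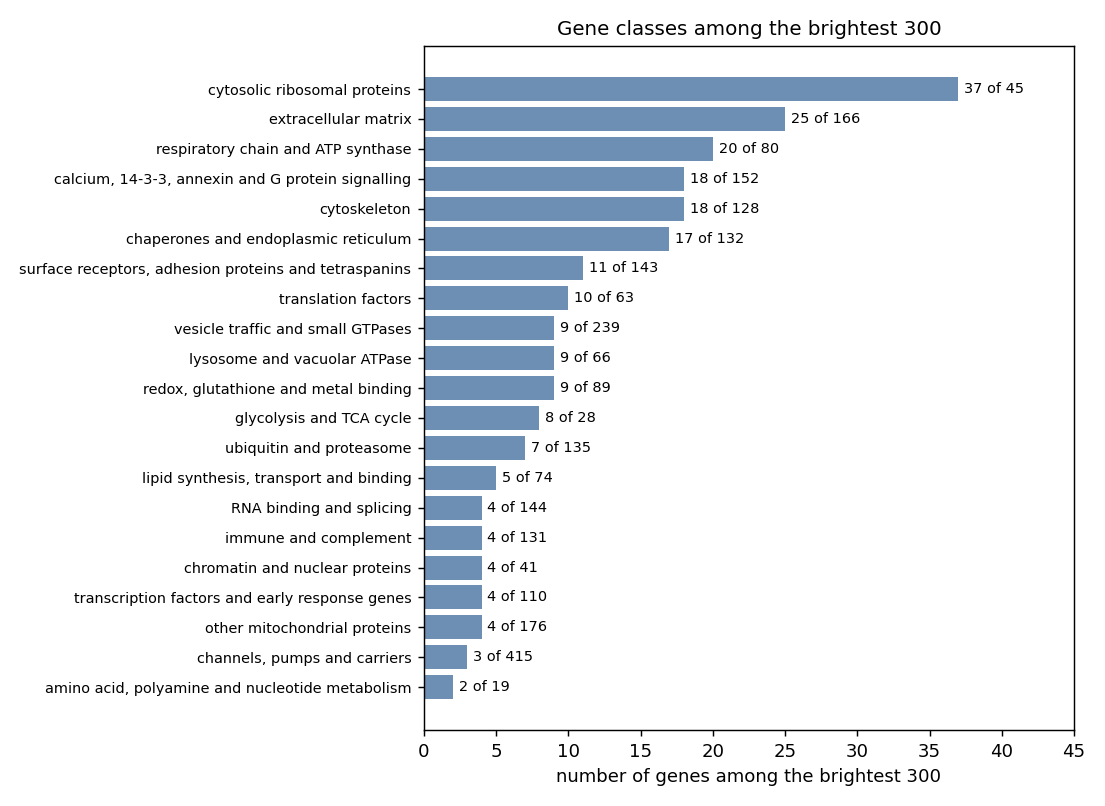
Number of genes among the brightest 300 (horizontal axis) in each function list (vertical axis), with the count of measured members printed at the bar. Cytosolic ribosomal proteins lead with 37 of 45, followed by the extracellular matrix with 25 of 166.

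Genes of protein synthesis formed the largest block. Ribosomal proteins build the small and large subunits of the cytosolic ribosome, and 37 of the 45 measured (82.2%) were among the 300, at a median log2 signal of 13.95. Rps29 of the small subunit led with signals of 21977, 24631 and 22960. Rpl3 of the large subunit followed with 21791, 23386 and 22115, then Rpl7a with 20725, 22248 and 21804 and Rps23 with 20220, 21247 and 20614. In each of these 4 genes array B was the highest and array A the lowest. The remaining small-subunit members were Rps6, Rps16, Rps3a, Rps24, Rps15a, Rps3, Rpsa, Rps9, Rps15 and Rps28. The remaining large-subunit members ran from Rpl26 and Rpl27a, both among the brightest 20, to Rpl24 at rank 220 with 8051, 9589 and 9848. In between lay Rpl37a, Rplp0, Rpl23, Rpl41, Rpl6, Rpl11, Rpl19, Rpl5, Rpl27, Rpl7, Rpl35, Rpl12, Rpl34, Rpl18, Rpl13a, Rpl35a, Rpl22, Rpl4, Rpl23a and Rpl14.

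The 8 measured ribosomal genes outside the 300 were not all just below it. Rpl21 was close, at 6738, 6549 and 7637. Rpl28 had 121.2, 92.9 and 111.9, Rps13 had 62.8, 84.1 and 93.1, Rpl30 had 48.7, 63.7 and 61.4, and Rpl39 had 277.7, 111.7 and 138.6, although these proteins belong to the same ribosome. Rps27l, Rps4y2 and Rpl3l, which are paralogs of core ribosomal proteins, were at log2 means of 9.61, 7.48 and 3.88. Whether the dim probe sets fail to read their transcripts was not tested. The count of 45 is itself incomplete: 67 probe sets with several symbols were as bright as the last member or brighter, and 31 of them carried a ribosomal symbol, but no gene is named from them.

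Translation factors gave 10 of 63. Eef1a1, which brings aminoacyl-tRNA to the ribosome, had 18679, 20885 and 17528, and Eef1g and Eef1b2, subunits of its exchange factor, had log2 means of 14.14 and 13.75. Rack1, a scaffold bound to the small subunit, was at 13.68. Eif4g2, Eif4a1, Eif4a2 and Eif5a of initiation and elongation, Naca, which binds nascent chains, and Eef2, the translocation factor, completed the group. Their median was 13.56 with a median SD of 0.060.

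Ribosomal and elongation factor mRNAs are known for a run of pyrimidines at their start, through which growth signals control their translation. Promoter windows of 300 bases, from 250 before to 50 after the annotated start, were taken from RefSeq (GRCr8) for 249 of the 300 genes and for 11700 of the 14217 genes. A run was at least 8 letters, all C or T, on the gene's strand, overlapping the 5 bases on either side of the start. Such a run was present in 17 of the 31 bright ribosomal genes with a window (54.8%). The share was 15.7% of the 300 (39 of 249) and 8.42% of all genes (985 of 11700). On the opposite strand, read as a run of A and G, the shares were 3.23%, 8.03% and 9.28%. Only 2 of the 10 bright translation factors with a window held the pyrimidine run, Eef1a1 and Eef1b2. Eef1g and Eef2, also of elongation, did not hold it. Of the 7 ribosomal genes outside the 300 with a window, 3 held the run (42.9%), a number too small to set against the bright ones. These are matches in letters around the start as annotated, not mapped transcript ends. The 6 brightest ribosomal genes with a run and both translation factors with one are shown to let the runs be compared, each 25 bases on either side of the start, 5′ to 3′ on the gene's strand, with pyrimidine runs that overlap the start region in capitals.
Rps23, chr2:23814492-23814541, plus strand: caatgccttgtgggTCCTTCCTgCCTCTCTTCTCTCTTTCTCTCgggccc
Rpl27a, chr1:172974548-172974597, plus strand: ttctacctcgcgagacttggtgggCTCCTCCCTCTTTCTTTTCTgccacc
Rps24, chr16:96492-96541, plus strand: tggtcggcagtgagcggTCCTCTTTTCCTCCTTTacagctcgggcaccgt
Rplp0, chr12:46718366-46718415, minus strand: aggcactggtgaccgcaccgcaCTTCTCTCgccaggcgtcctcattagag
Rpl23, chr10:83272160-83272209, minus strand: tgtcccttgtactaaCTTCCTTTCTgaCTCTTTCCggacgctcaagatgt
Rps15a, chr1:181860260-181860309, minus strand: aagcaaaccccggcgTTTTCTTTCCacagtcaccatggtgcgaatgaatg
Eef1a1, chr8:88225045-88225094, minus strand: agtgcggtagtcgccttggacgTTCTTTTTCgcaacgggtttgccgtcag
Eef1b2, chr9:72074066-72074115, plus strand: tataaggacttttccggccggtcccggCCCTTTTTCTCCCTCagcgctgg
The runs are of different length and letters, and those of Rps23 and Rpl27a are the longest of the 8.

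Other promoter features of the 300 were close to those of all genes or moderately different. The median GC content was 60.7% against 60.0%, and the ratio of observed to expected CpG was 0.817 against 0.724. Windows with at least 50% GC and a CpG ratio of at least 0.6 made up 69.1% (172 of 249) against 60.9% (7122 of 11700). The letters CCAAT or their reverse complement ATTGG in the 250 bases before the start were found in 35.7% and 35.1%. The letters TATAA were sought 40 to 16 bases before the start on the gene's strand. They were found in 18 of 249 (7.23%) against 330 of 11700 (2.82%), and their reverse complement TTATA in 1.61% and 0.906%. Of the 18, 5 also held a pyrimidine run at the start. TATAA occurred in 3 of 10 translation factors, 3 of 18 matrix genes, 2 of 8 redox genes and 2 of 17 cytoskeleton genes. It occurred in 2 of 31 ribosomal genes and 0 of 17 nuclear genes of the respiratory chain. The brightest with the letters were Eef1a1 and Rplp0. They are shown with Tpi1, a glycolytic isomerase, and Slc25a4, the mitochondrial ADP and ATP carrier, from 50 bases before to 10 after the start with TATAA in capitals, to show its place in genes of different roles.
Eef1a1, chr8:88225060-88225119, minus strand: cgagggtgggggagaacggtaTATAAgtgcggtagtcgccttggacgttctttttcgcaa
Rplp0, chr12:46718381-46718440, minus strand: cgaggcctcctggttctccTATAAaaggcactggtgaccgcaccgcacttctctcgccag
Tpi1, chr4:159305079-159305138, minus strand: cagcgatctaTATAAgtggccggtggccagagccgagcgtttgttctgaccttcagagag
Slc25a4, chr16:52805471-52805530, plus strand: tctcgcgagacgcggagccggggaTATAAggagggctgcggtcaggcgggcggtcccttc
Eef1a1 and Rplp0 hold both features, and in their second window the pyrimidine run lies in lower case at the start.

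Energy metabolism gave the next block. The respiratory chain and ATP synthase, which make ATP in mitochondria, had 20 of 80 measured nuclear genes among the 300, and the list's median of 12.28 was far above that of all genes. Cox4i1, a cytochrome oxidase subunit, had signals of 12126, 13669 and 12516, and Atp5pb, of the stator of ATP synthase, had 11216, 13345 and 12026. Cox6c had 11852, 11933 and 12155, one of the smallest spreads of all members (SD 0.019). Complex IV gave Cox4i1, Cox6c, Cox8a, Cox6a1, Cox7b and Ndufa4, and ATP synthase gave Atp5pb, Atp5f1a, Atp5f1b, Atp5f1c, Atp5pd, Atp5po, Atp5mc3, Atp5mf, Atp5mg and Atp5mk. Complex I gave Ndufa1 and Ndufb4, complex III Uqcr10 and Uqcrh, and no member was a subunit of succinate dehydrogenase. The list of other mitochondrial proteins gave 4 of 176, a share of 2.27%, near the 2.11% of all genes. They were Slc25a3, which imports phosphate, at 14183, 14086 and 13736, the ADP and ATP carriers Slc25a4 and Slc25a5, and the porin Vdac3.

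Glycolysis and the TCA cycle had 8 of 28 genes. Beside Eno1 these were Ldha, which turns pyruvate to lactate, at 13578, 14921 and 14684, Aldoa, an aldolase, at 12881, 14147 and 13929, and Pgk1, a phosphoglycerate kinase, at 10856, 14195 and 15058. Tpi1, Pgam1, Aldoc and the malate dehydrogenase Mdh1 were the others. Array A was the lowest for all 8 as deposited and for 5 of 8 after quantile normalization, and Pgk1 had the widest spread (SD 0.252, 1.39-fold from lowest to highest).

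The extracellular matrix list had 25 of 166 genes (15.1%). It held collagens and the proteins that fold and bind them, growth factor binding proteins and regulators of proteases. Among the collagens, Col1a2 and Col3a1 were followed by Col5a2 at 12821, 12037 and 12536, Col1a1 at 11277, 10180 and 10986 and Col11a1 at 9393, 7590 and 9890. Serpinh1, the collagen chaperone, was at a log2 mean of 13.59 and Lox, which crosslinks collagen and elastin, had 12689, 12036 and 15416. Col11a1, Col1a1, Col5a2 and Lox were lowest on array B, unlike most of the 300. Fn1, fibronectin, had 14975, 11384 and 11267, with array A highest as for Col3a1.

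Glycoproteins of this list included Fmod, Sparc, Fbln2 of the fibulins (18878, 18156 and 19225), Mfap4 of elastic fibres (14766, 14216 and 15335), Fstl1 and Tnc, the tenascin made by immature and reactive astrocytes (9513, 6915 and 9514). The insulin-like growth factor binding proteins were Igfbp2, Igfbp7 (17533, 20583 and 18443) and Igfbp5 (12783, 11673 and 14644). Timp1 and Timp2, which inhibit matrix metalloproteases, had log2 means of 13.90 and 13.53. Ccn2 and Ccn3, matricellular proteins, were both of wide spread. Ccn2 had 10276, 8910 and 12618, and Ccn3 had 6978, 11530 and 11303. The heparan sulfate proteoglycans Sdc2 and Sdc4, Postn and Ogn completed the 25. The median SD of the class, 0.12, was above the 0.089 of all 300 members.

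Secreted proteins outside the lists added 13 genes, grouped after their values were seen. Cst3, Ccdc80 and the galectin Lgals1 (14555, 17121 and 16072) were the brightest. Ptn, pleiotrophin, a growth factor of the developing nervous system, had 11168, 14684 and 13437. Cpe, a prohormone processing enzyme, the protease Prss23, Sema3c, a secreted guidance cue, Masp1, a complement protease, and Gask1b were also there. Clu, Cp, A2m and Rnase4 were the others.

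The cytoskeleton gave 18 of 128. Vim, Gfap and the actin Actg1 form the framework of the astrocyte. Tmsb4x, Pfn1, Cnn3, Tagln, Tpm1, Tpm4, Cald1, Arpc2, Actr2 and Flna bind actin or nucleate its filaments. Cnn3, a calponin, had signals of 15229, 16996 and 17097. Myl12a and Myl12b are myosin light chains, Tubb2a and Tubb4b are beta tubulins at log2 means of 13.58 and 13.06, and Marcks links actin to the membrane. Arpc2, a subunit of the Arp2/3 complex, had the smallest spread of the 300, with 8430, 8473 and 8409 (SD 0.0055). Flna, filamin A, which crosslinks actin, had one of the widest, with 9581, 6551 and 7400 (SD 0.280). Adaptors outside the lists included Ctnnb1 and Ctnna1, the catenins of adhesion junctions, Fhl1, a LIM domain protein (16702, 16797 and 17044), Pea15, an astrocyte phosphoprotein (13303, 13640 and 13013), and Ndrg2, an astrocyte-enriched protein (8288, 9836 and 9155). Crip2, Dpysl2, Sdcbp, Pls3, Mtss1, Nckap1, Septin2 and Cavin3 were the rest of that group of 13.

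Protein folding in the endoplasmic reticulum and cytosol gave 17 of 132, and these varied less than most: their median SD was 0.042. Cryab, the small heat shock protein alpha B crystallin, had 13682, 12434 and 11376. P4hb, a disulfide isomerase, had 12202, 12256 and 12857, Spcs1 of the signal peptidase had 11918, 12136 and 11938, and Hspa5, the chaperone BiP, had 12703, 12042 and 11148. The chaperones Hsp90ab1, Hsp90b1, Hspd1, Hspb1 and Ptges3, the isomerases Pdia3, Pdia6, Ppib and Fkbp1a, the lectin chaperones Calr and Canx, the translocon subunit Sec61g and the cargo protein Tmed2 followed. Calr (10072, 9918 and 9800) and Ppib (10586, 10864 and 10828) had SDs of 0.020.

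Protein breakdown was represented by 7 of 135 genes of ubiquitin and the proteasome and 9 of 66 of the lysosome. Skp1, a ubiquitin ligase subunit, had 11702, 12924 and 14023, Nedd8, a ubiquitin-like modifier, had 11664, 12396 and 10959, and the proteasome subunits Psma6, Psmc2, Psmb4 and Psmb1 and Sumo2 lay between 13.14 and 12.91. Cd63, a tetraspanin of late endosomes, led the lysosomal genes with 16045, 17103 and 14782, ahead of Laptm4a (14845, 16478 and 15650), Ctsl, cathepsin L (11518, 12342 and 12960), and Laptm4b (9208, 11554 and 10016). Psap, Npc2, Lamp1, Ctsb and the proton pump subunit Atp6v0c were the others. Array A was the lowest for 8 of the 9 lysosomal genes, also after quantile normalization. Vesicle traffic and small GTPases gave 9 of 239, a share of 3.77%: Cav1 of caveolae (13484, 14048 and 14295), Arf1 (13495, 12846 and 12828), Rab1a (11743, 12259 and 12919), Cdc42 (10800, 13729 and 11862), Ap2m1, Rac1, Gdi2, Arf4 and Snx3.

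Redox and metal-binding genes gave 9 of 89. Txn1, thioredoxin, had signals of 14346, 16650 and 15064, Gpx1, a glutathione peroxidase, had 13021, 16463 and 14384, and Mgst1, a microsomal glutathione transferase, had 11521, 14046 and 10784. Mt3, the metallothionein of brain astrocytes, had 9569, 12639 and 9420. Array B was the highest for these 4 genes. Prdx2, a peroxiredoxin, had 9307, 10524 and 10539, and Sod1, the cytosolic superoxide dismutase whose mutant human form the other cultures of the study carry, had 8982, 8855 and 9430 at rank 222 (SD 0.048). The selenoproteins Selenot and Selenof and the peroxidase Gpx8 completed the group.

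Calcium-binding proteins, annexins, adaptor proteins of the Ywha family and G protein subunits gave 18 of 152. S100a11 had 18464, 19232 and 17616 and S100a10, a partner of annexin A2, had 15710, 15599 and 16017, with an SD of 0.020. Calm2, calmodulin, had 14406, 18500 and 14254, with only array B high, and Gnas, the stimulatory G protein subunit, had 14336, 15656 and 15781. S100b, S100a4 and S100a6 were the other S100 proteins, Anxa1, Anxa2 and Anxa5 the annexins, and Ywhae, Ywhaq and Ywhaz the adaptors. Gnb1 and Gng5 are G protein subunits, Csnk1a1 and Ppp2cb a kinase and a phosphatase subunit, and Pebp1 an inhibitor of Raf.

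Surface receptors, adhesion proteins and tetraspanins gave 11 of 143. Cd81, a tetraspanin, had 18809, 20320 and 17990, Bsg, basigin, which escorts lactate transporters to the membrane, had 12249, 14500 and 13316, App, the amyloid precursor, had 12538, 14058 and 13032, and Tspan6 had 11775, 12286 and 11566. Itgb1, an integrin chain, Tspan3, Cd151, Cd9, Pmp22, Cd164 and the cadherin Cdh11 followed. Pmp22, a membrane protein best known from peripheral myelin, had 10830, 7863 and 10247, with array B the lowest. Channels, pumps and carriers gave 3 of 415 (0.723%), below the 2.11% of all genes, and the 3 were the astrocyte genes Gja1, Aqp4 and Slc1a3. A further 20 membrane proteins were in no list. They included Itm2b and Itm2c, Plpp1, a lipid phosphatase (15618, 18348 and 17474), Prnp, the prion protein (13596, 15762 and 15175), Pdpn, podoplanin (8250, 9929 and 9858), and F2r, the thrombin receptor (10294, 11410 and 10569). Rtn4, the neurite growth inhibitor Nogo (10195, 11555 and 11762), and Nptn, an adhesion protein (9925, 10812 and 11962), were highest on array C. Mlc1, Fgfr3, Vapa, Tmem59, Lhfpl6, Tmbim6, Mxra8, Sidt2, Wls, C2h4orf3, Serinc3 and Yipf5 were the rest of the 20.

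Lipid genes gave 5 of 74, led by Fabp7. Scd2, a fatty acid desaturase, had 15987, 17425 and 16761, Fabp5, a paralog of Fabp7, had 11643, 10807 and 9233, and Dbi, which binds acyl-CoA, had 9375, 10799 and 9902. Cyp51, a sterol demethylase of cholesterol synthesis, was at 8361, 8107 and 8316. Oaz1, the antizyme that limits polyamine synthesis, and Nme2, a nucleoside diphosphate kinase, were the 2 of 19 genes of amino acid, polyamine and nucleotide metabolism. Ckb, the brain creatine kinase, which was in no list, had 12347, 13199 and 11497. It was 1 of 7 enzymes outside the lists, with Akr1a1, an aldehyde reductase (10932, 12241 and 13064), Nedd4, a ubiquitin ligase (12310, 12333 and 11255), Bpgm, a mutase of the glycolytic side path (10511, 10603 and 9628), Vcp, an ATPase that extracts proteins for degradation (8243, 8577 and 7890), the lysosomal sulfatase Ids and Mettl9. A last 7 genes of mixed role were Serf2, Lxn, Chchd2l3, Srp14 of the signal recognition particle (8623, 8896 and 8724), Fam120a, Paip2 and Gabarap, an autophagy protein (7543, 8725 and 8437).

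Lists of nuclear genes gave small counts, although the share of the chromatin list, 9.76%, was above the 2.11% of all genes. Chromatin proteins gave 4 of 41: the nucleosome-binding proteins Hmgn1 (17272, 15993 and 14624) and Hmgn2 (12795, 11349 and 10021), the histone variant H2az1 (11717, 10919 and 8765) and the GTPase Ran (11629, 11632 and 10812). All 4 were lowest on array C, as the markers of dividing cells were, and 3 were highest on array A (4 after quantile normalization). The part of dividing cells in this was not tested. RNA-binding proteins gave 4 of 144, a share of 2.78%, near that of all genes: Cnbp (10245, 10197 and 9887), the helicase Ddx5 (8583, 8740 and 8435), Hnrnpa0 and Nono. Their median SD was 0.031. The 10 nuclear genes in no list were Mrfap1 (14370, 15244 and 13192), Morf4l1 and Morf4l2 of histone acetylation complexes, Sub1, Lmo4, Ccng1, Rbbp7, Erh, Maged1 and Zwint.

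Transcription factors and early response genes gave 4 of 110. Btg1, an antiproliferative gene, had 9475, 11183 and 12279, and Tsc22d1 had 9665, 9443 and 10458. Zfp36l1, which destabilizes mRNAs, had 6940, 9817 and 7536, and Id3, an inhibitor of bHLH factors and a target of BMP signalling, had 7088, 8258 and 7996. Immune and complement genes gave 4 of 131: B2m, the light chain of MHC class I (16364, 19253 and 17061), Ifitm3, an interferon-induced membrane protein (12803, 15619 and 14044), Ifi27 (7151, 10346 and 8299) and the monocyte chemokine Ccl2 (6456, 10538 and 8943). All 4 were lowest on array A and highest on array B, also after quantile normalization. The median of the microglia list was lowest on array A and highest on array B (4.78, 5.34 and 5.28), with B and C close. These are low signals, at which single genes of the list varied widely and in different directions. C1qb had 2.5, 49.3 and 38.2, and C1qa had 42.0, 8.1 and 7.3. The log2 of that list's summed signal was instead highest on array C (10.63, 10.76 and 11.15). Without Cd14 and Tmem119 the sum was highest on array C too (8.96, 9.54 and 9.59). The part of such cells in the immune signals was not tested.

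The 3 arrays differed slightly at the bright end. Array A was the lowest of the 3 for 185 of the 300 genes and array B the highest for 186, with median deviations from the gene's mean of -0.056 and 0.053, and -0.003 on array C. Over all genes the medians were -0.013, 0.008 and 0.013. After quantile normalization, which gives each array the same distribution, array A was the lowest for 103 of the 300 genes then chosen, array B for 89 and array C for 108. Ribosomal genes went with the majority: array A was the lowest for 30 of 37 and array B the highest for 33, which became 16 and 15 after quantile normalization. Pearson correlations over the 300 genes were 0.926 for A and B, 0.937 for A and C and 0.946 for B and C. They describe genes on arrays that share their probe sets.

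**Figure D4:**
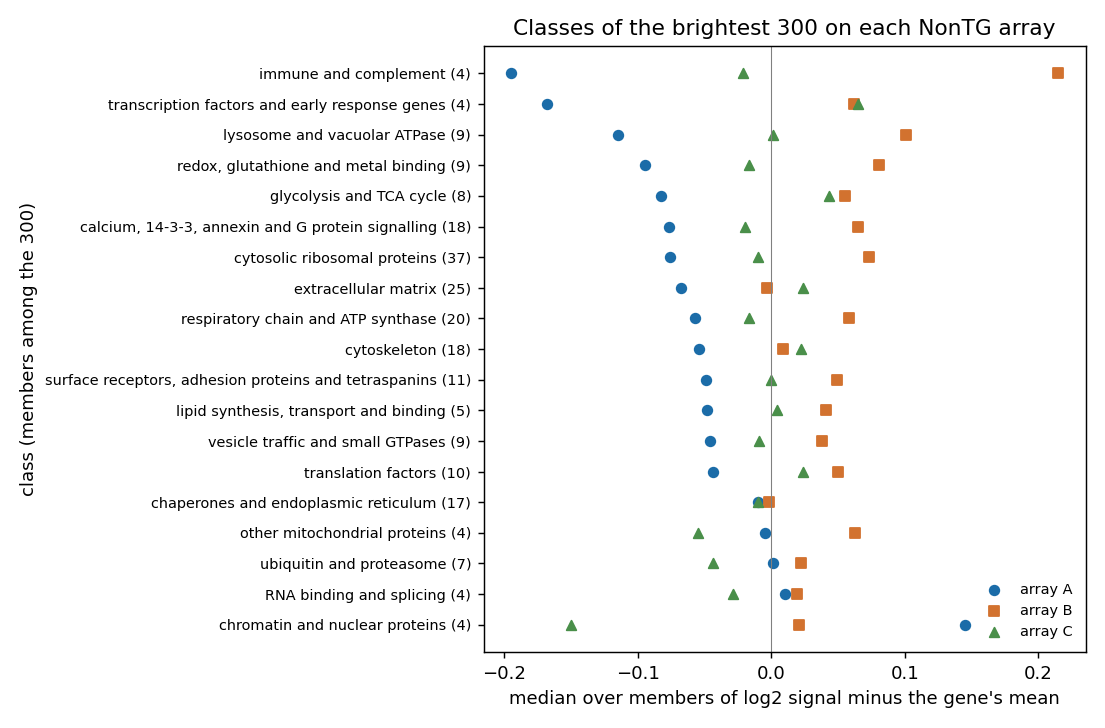
Median over the members of a class of the log2 signal minus the gene's mean over the 3 NonTG arrays (horizontal axis), for each class with at least 4 genes among the 300 (vertical axis, number in brackets). Array A lies lowest in most classes, the chromatin class runs from -0.150 on array C to 0.145 on array A, and the immune class from -0.195 on array A to 0.215 on array B.

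The 8 genes with the widest spread were Cp, Ccn3, Rnase4, Ccl2, A2m, Flna, Lmo4 and Ifi27, of which Cp, Ccn3, Rnase4, Ccl2 and A2m encode secreted proteins. An SD above 0.2 was seen in 26 of the 300 and one below 0.05 in 68. Cp, ceruloplasmin, the copper-carrying ferroxidase of astrocytes, had signals of 6632, 13913 and 8780, a 2.10-fold span (SD 0.540). Ccn3 had 6978, 11530 and 11303 (SD 0.410) and Rnase4 had 5602, 8815 and 9324 (SD 0.403). Array A was the lowest in all 3, well below both others for Ccn3 and Rnase4, while for Cp array B stood farther above the middle array than array A below it. Ccl2 (SD 0.360) and A2m, the protease inhibitor alpha 2 macroglobulin, with 6484, 9864 and 8647 (SD 0.310), were also lowest on array A and highest on array B. Lmo4, a LIM domain cofactor of transcription, had 9647, 13328 and 9525, with only array B high. Flna was highest on array A. The 8 genes with the narrowest spread were Arpc2, Spcs1, Fhl1, Arf4 (8728, 8916 and 8737), Cox6c, S100a10, Calr and Ppib, each within 1.01-fold to 1.03-fold from lowest to highest. After quantile normalization their SDs were 0.030 to 0.075, and those of the 8 widest 0.23 to 0.50. With 3 arrays, an SD of a single gene is imprecise.

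**Figure D5:**
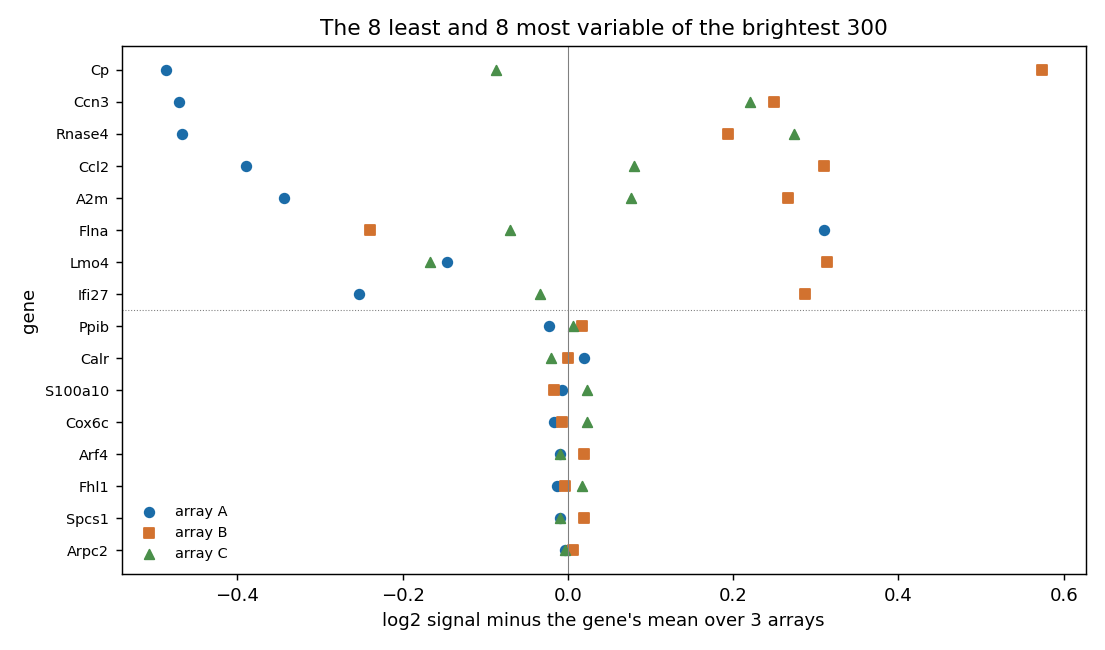
Log2 signal minus the gene's mean over the 3 NonTG arrays (horizontal axis) for the 8 genes of the 300 with the smallest SD (lower rows) and the 8 with the largest (upper rows), 1 point for each array. Cp, Ccn3, Rnase4, Ccl2 and A2m have array A at the low end, and Flna has it at the high end.

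Signals depended on which probe set reads a gene. Of the 300 genes, 206 had 1 probe set and 94 had several, up to 7. In those 94 the median gap was 1.00 between the brightest and the next probe set and 2.24 between the brightest and the dimmest, on the log2 scale, and only 21 had a second probe set as bright as the last member. Pgk1 had the widest gap, 11.98, from signals of 10856, 14195 and 15058 to 0.33, 8.54 and 12.4. Gnas, Cald1, Ndrg2 and Ctnnb1 followed with gaps of 11.42, 10.64, 10.22 and 10.06. Gja1 was read by 3 probe sets, the second at 2920, 3606 and 2502 and the dimmest at 22.1, 41.5 and 28.1, and Aqp4 by 3, the second at 6858, 7141 and 5528. When a gene was instead given the average of its probe sets, 56 of the 300 genes were replaced, with Gja1 and Aqp4 among them. An average can lower only genes with several probe sets, so only such genes could leave the group. Gfap and Fabp7, each read by 1 probe set, thus stayed by construction. The astrocyte list then had 5 genes in the group, where it had 10 with the brightest probe set.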

How the data were processed

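Each array's deposited values are linear intensity, 1 signal per probe set. The submitters' processing notes name MAS5 and GCOS 1.4 for them, while GC-RMA and a log scale appear in the design text and were not what these values hold. Only the 3 NonTG arrays were used. Of 31099 probe sets, 57 controls were left out, and of the 31042 others 20826 had 1 symbol, 436 several and 9780 none; 20758 matched the RefSeq gene table by Entrez identifier and 0 symbols changed. The log2 was taken with no pseudocount, filter or further normalization, in Python 3.11.15 with pandas 2.3.3. Detection calls were not used here. The number of arrays limits the precision. No test was made, since signals chose the members. Function lists were matched by symbol, and each gene counted in 1 list by a fixed order. Members and lists were chosen with earlier results of these data known; groups of genes in no list were formed after seeing them. Named genes were the 20 brightest, the markers, the brightest of each list, the most and least variable, those at the edge of the 300 and those with the widest probe set gaps; the remaining genes named were added after their values were seen. The script was tested on simulated data. Alternatives were another mean, normalization, probe set rule, number of genes, and leaving out an array.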

Additional observations from a re-analysis of the deposited data

How the results depend on the processing

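In all, 12 alternatives were run for 5 results (the genes shared with the 300, the ribosomal, matrix and astrocyte counts, and the median SD), and 55 of the 60 values stayed within the tolerance, which was 1.5 times for a count and, for the median SD, 1 SD of its values with each array left out. For the shared genes, 200 and 300 with 200 and 400 genes kept are nested sets fixed by construction. They are counted in the 55 but say nothing about stability. The genes shared with the 300 numbered 299 with the mean of linear signals or quantile normalization, 244 with the mean over a gene's probe sets, and 246 when probe sets with several symbols were kept, which put 54 such entries in the group. Ribosomal genes ranged from 34 to 38 and matrix genes from 21 to 30 over all alternatives. The astrocyte genes in the group were 5 in place of 10 with the mean and with the median over a gene's probe sets. The median SD was 0.0682 in place of 0.0889 with quantile normalization, and 0.0617 to 0.0876 with 1 array left out. With 1 array left out each SD rests on fewer arrays, so these values are not directly comparable with 0.0889. The same values set the tolerance for the median SD, so judging them by it is no independent check. A further 33 probe sets without a symbol were as bright as the last member. No paired analysis was possible because only 1 group of arrays was used and no result comes from a test. Signals give no depth, and the spread between arrays was wider for dimmer genes (median SD 0.205 over all genes and 0.119 over the brighter 7108).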
